A study of Mus musculus with 6 samples.

Results

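The 10 genes described here code for enzymes that make serine, one-carbon units and asparagine, and for the transcription factor ATF4 with 3 of its stress targets. They were chosen by name: Phgdh, Psat1, Psph, Shmt2, Mthfd2, Asns, Atf4, Ddit3, Chac1 and Trib3. All 10 were found among the 48432 genes of the deposited table. RNA was measured in hepatocyte preparations of FVB mice, in 3 groups of 2 samples. The normal fed adults are labelled CHOW. The DDC fed adults received a diet with DDC for 4 weeks; DDC (3,5-diethoxycarbonyl-1,4-dihydrocollidine) injures the liver and bile ducts. The E18 samples are hepatocytes of embryonic day 18, each prepared from a pool of roughly 8 fetal livers. No transgene or deletion is named for any group. Adult age and sex are not given in the labels, and no label says that replicates are separate animals, so p-values measure the spread between these samples, which may be technical. Samples are called 0 and 1 after the columns of the table.

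In cells, PHGDH, PSAT1 and PSPH turn the glycolytic intermediate 3-phosphoglycerate into serine in successive steps. SHMT2 splits serine into glycine and a one-carbon unit inside mitochondria, MTHFD2 oxidizes that unit, and the product feeds purine and thymidylate synthesis. ASNS makes asparagine from aspartate and glutamine. ATF4 is translated more when the initiation factor eIF2 is phosphorylated, as under amino acid shortage or endoplasmic reticulum (ER) stress, and it induces genes of amino acid synthesis and transport as well as Ddit3 (CHOP), Chac1 and Trib3. Since much of that control is on translation, the RNA level of Atf4 does not report the amount of its protein. Adult liver is known as an organ that breaks down amino acids.

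The gene positions are those of GRCm38 with the GENCODE M21 annotation, and all 10 are protein-coding. Phgdh (ENSMUSG00000053398.11) lies at chr3:98313170-98339990 and Psat1 (ENSMUSG00000024640.9) at chr19:15904678-15947337. Psph (ENSMUSG00000029446.14) lies at chr5:129765558-129787449. Shmt2 (ENSMUSG00000025403.4) and Ddit3 (ENSMUSG00000025408.15) share a chromosome, at chr10:127517123-127522444 and chr10:127290774-127296288. Mthfd2 (ENSMUSG00000005667.8) at chr6:83305691-83325908 and Asns (ENSMUSG00000029752.12) at chr6:7675169-7693254 share another. Atf4 (ENSMUSG00000042406.7) lies at chr15:80255184-80257541. Chac1 (ENSMUSG00000027313.3) at chr2:119351229-119354381 and Trib3 (ENSMUSG00000032715.9) at chr2:152337422-152344032 share chromosome 2.

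ATF4 is known to bind, with C/EBP partners, a composite element whose core can be written TGATGNAA. That core was searched on both strands in the RefSeq promoter windows of GRCm38.p6, which run from 250 bases before to 50 bases after each start site. All 10 genes matched a window, with 11 windows in all since Psat1 has 2. The core was found in 3 of the 10 genes, Asns, Chac1 and Trib3, and in 4.51% of all 27025 genes with a window. The full cyclic AMP response element TGACGTCA was found in none of the 10 and in 2.03% of all genes. The 3 windows with a match and the Phgdh window, which has none, are printed in the direction of the gene. They are shown because they are the windows with the core, beside that of a gene without it that was called in the same direction as Asns at E18. Capitals mark the match, and base 251 of each window is the start site. The windows are chr6:7693160-7693459 (minus strand) for Asns, chr2:119350992-119351291 (plus strand) for Chac1, chr2:152344011-152344310 (minus strand) for Trib3 and chr3:98339920-98340219 (minus strand) for Phgdh.
Asns: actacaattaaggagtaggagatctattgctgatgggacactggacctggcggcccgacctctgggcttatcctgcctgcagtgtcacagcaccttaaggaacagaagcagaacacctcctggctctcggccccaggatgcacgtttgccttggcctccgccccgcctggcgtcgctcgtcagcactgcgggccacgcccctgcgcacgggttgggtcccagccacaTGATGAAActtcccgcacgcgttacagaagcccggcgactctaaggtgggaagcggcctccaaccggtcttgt
Chac1: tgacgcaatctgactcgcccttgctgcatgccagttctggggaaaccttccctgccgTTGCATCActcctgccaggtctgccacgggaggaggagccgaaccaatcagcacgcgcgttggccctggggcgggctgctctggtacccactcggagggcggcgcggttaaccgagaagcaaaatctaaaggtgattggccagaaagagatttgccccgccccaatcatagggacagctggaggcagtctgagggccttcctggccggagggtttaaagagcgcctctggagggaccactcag
Trib3: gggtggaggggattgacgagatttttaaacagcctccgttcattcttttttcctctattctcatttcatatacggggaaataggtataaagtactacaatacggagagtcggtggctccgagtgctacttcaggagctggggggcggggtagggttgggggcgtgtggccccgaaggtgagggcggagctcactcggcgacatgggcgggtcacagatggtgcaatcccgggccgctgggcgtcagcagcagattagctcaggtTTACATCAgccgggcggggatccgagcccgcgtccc
Phgdh: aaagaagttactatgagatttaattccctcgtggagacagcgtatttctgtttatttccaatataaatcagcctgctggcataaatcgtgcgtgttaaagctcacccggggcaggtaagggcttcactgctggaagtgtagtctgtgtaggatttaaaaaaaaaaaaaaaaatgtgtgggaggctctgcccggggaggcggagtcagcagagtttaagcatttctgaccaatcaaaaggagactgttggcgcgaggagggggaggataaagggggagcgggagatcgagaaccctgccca
The Asns match, TGATGAAA, is on the strand of the gene and begins at position -23. The Chac1 match, TTGCATCA, reads on the other strand and begins at -193. The Trib3 match, TTACATCA, also reads on the other strand and begins at position 15, after the start site. A match of letters is a description and not a binding site, and binding was not measured.

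Values are TPM, transcript abundances on a common sum, which are scaled by gene length. Each column summed to 1000000, the table holds no counts, and the depth behind a low value is unknown. Differences are log2 fold changes of TPM + 1 with their standard error (SE), from a linear model of all 6 samples with limma, and p-values are Benjamini-Hochberg adjusted over the 14307 genes tested, and called under 0.05. The added 1 shrinks the fold change of genes near or below 1 TPM, so the ratio of mean TPM is printed as well for Phgdh, Psat1, Asns, Mthfd1l, Aldh18a1, Slc1a4 and Slc7a5. For other genes at such levels the log2 value understates the ratio. All 10 genes passed the filter of 1 TPM in at least 2 samples, but Phgdh and Psat1 passed it only through the E18 samples. The normal fed samples were further apart than the others, with a median absolute log2 difference of 0.37 from each other, against 0.125 for DDC fed and 0.17 for E18 samples. Longer genes were lower in normal fed sample 1, with a median difference of -0.52 on the log2 scale in the top quintile of exon length and of 0 in the bottom one.

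Markers of cell types other than hepatocytes moved with the groups. The hepatocyte list of 12 genes summed to 20870 and 30570 TPM in normal fed, 16420 and 18220 in DDC fed, and 3905 and 6231 in E18 samples. With DDC 1 of its 11 tested genes was called higher, 1 lower and 9 did not pass, with a median log2 difference of -0.03, and at E18 9 were lower and 1 higher. In it Alb is listed at 0 in every sample, Serpina1a at 0 in normal fed samples and Fgb at 0 in E18 samples. Fgb is among the 9 called lower at E18. Whether these zeros stand for absent RNA was not tested, so the sums and counts of this list are uncertain. Neutrophil markers summed to 0.555 and 0.626 TPM in normal fed, 4.06 and 4.96 in DDC fed, and 57610 and 68710 in E18 samples, with 3 of 12 called higher with DDC and all 12 at E18. Erythroid markers ran from 26.6 to 39.9 TPM in the adult samples and reached 1505 and 2397 at E18. Macrophage markers summed to 133 and 161 TPM, then 1311 and 1607, then 4047 and 5202, with all 12 called higher in both comparisons with normal fed samples. Summed stellate, endothelial and cholangiocyte markers were also higher in both groups than in normal fed samples, with 11, 11 and 5 called higher in DDC fed and 11, 12 and 8 in E18 samples, of 12, 12 and 10 tested. The 16 mitosis genes were all called higher in both, from 4.04 and 4.34 TPM to 166 and 187, and to 1437 and 1871. Of all genes tested, 34.2% were called higher and 3.07% lower with DDC, and 63% and 12.7% at E18. In such bulk samples, fewer cells of a type and less RNA per cell cannot be told apart. The part of these markers in the differences of the 10 genes was not tested.

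Of the serine synthesis genes, Phgdh and Psat1 differed most between fetal and adult preparations. Phgdh, the first enzyme of the route, was at 0.019 and 0.032 TPM in normal fed, 0.132 and 0.353 in DDC fed, and 88.7 and 70.8 in E18 samples. The 3 groups did not overlap, and both adult groups were near 0. Psat1, the second enzyme, was at 0.255 and 0.378 TPM, then 0.771 and 0.922, then 245.0 and 167.8. Its groups were in the same order without overlap. Psph, the last enzyme, was at 4.54 and 4.99 TPM in normal fed, 10.1 and 11.4 in DDC fed, and 27.8 and 20.5 in E18 samples, again without overlap. It had the highest level of the route in both adult groups and the lowest in E18 samples.

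**Figure D1:**
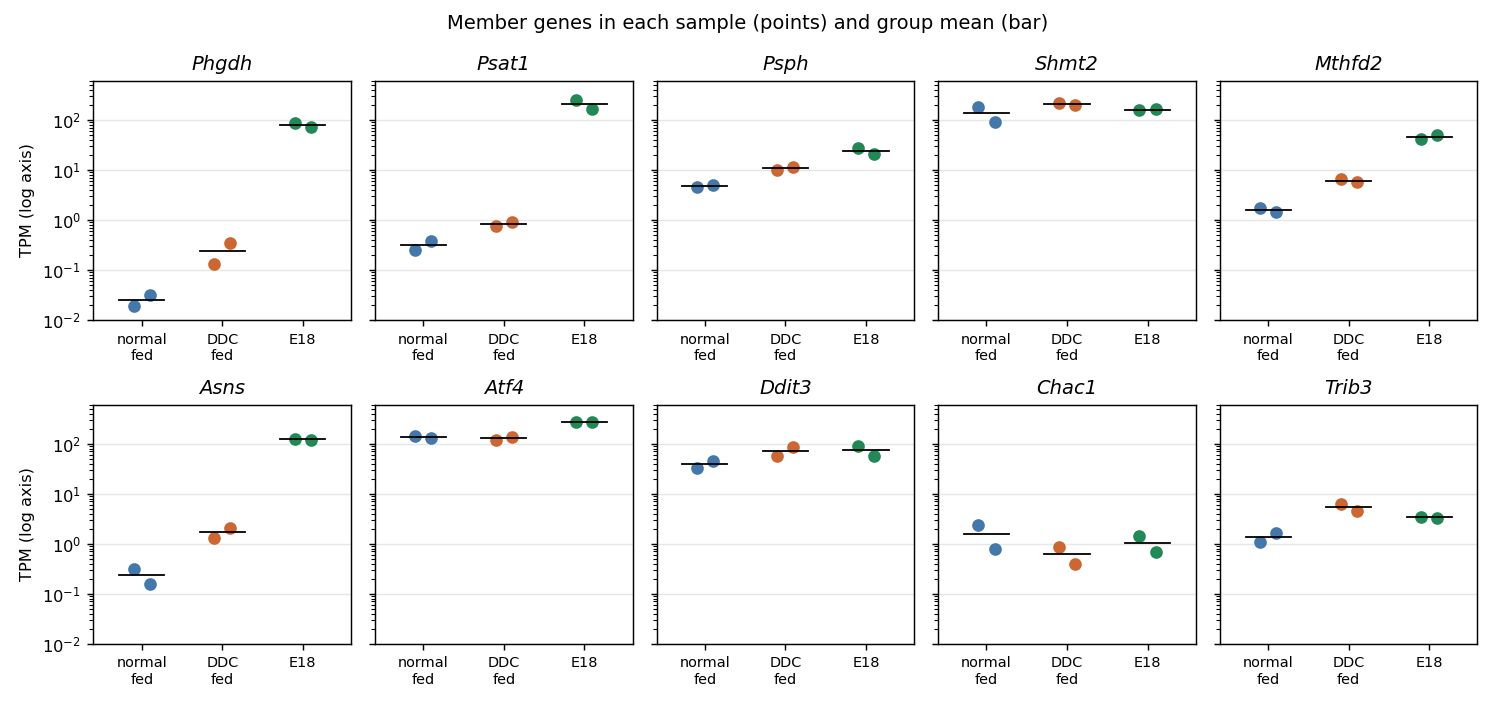
TPM of each of the 10 genes on a log axis, with a point per sample and a bar for the mean of the 2 samples of a group. Phgdh, Psat1 and Asns reach at most 0.353, 0.922 and 2.10 TPM in the 4 adult samples and at least 70.8, 168 and 119 TPM in the E18 samples, while Atf4 and Shmt2 stay at or above 118 and 93.0 TPM in every sample.

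The Phgdh mean was 79.7 ± 12.7 TPM (SD, n = 2) in E18 and 0.0257 ± 0.0089 TPM in normal fed samples, a log2 difference of 6.29 ± 0.20 SE (adjusted p = 1.51e-06, limma) and a ratio of means of 3102. Psat1 rose by 7.28 ± 0.24 to 206 ± 54.6 TPM (adjusted p = 1.53e-06, limma), a ratio of means of 651.5. Which of these 2 genes had the larger log2 difference depended on the pseudocount: with 0.1 it was 9.30 for Phgdh and 8.94 for Psat1. Psph rose by 2.11 ± 0.22, to 24.2 ± 5.17 from 4.77 ± 0.312 TPM (adjusted p = 0.000148, limma). In DDC fed against normal fed samples only Psph passed the test, at 10.8 ± 0.957 TPM and a log2 difference of 1.03 ± 0.22 (adjusted p = 0.0123, limma). That call was lost without DDC fed sample 0 (adjusted p = 0.0736) or 1 (adjusted p = 0.113) and under median-ratio scaling, where the difference was 0.44 (adjusted p = 0.19), quantile normalization (0.27, adjusted p = 0.426) and the exon-length correction (0.46, adjusted p = 0.152). Phgdh and Psat1 were 9.45 and 2.67 times their normal fed means in DDC fed samples, with log2 differences of 0.27 ± 0.20 (adjusted p = 0.318) and 0.49 ± 0.24 (adjusted p = 0.154). With a pseudocount of 0.1 in place of 1 both passed, at 1.37 (adjusted p = 0.0283) and 1.19 (adjusted p = 0.0249). Quantile normalization and the exon-length correction turned both below 0.

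Reads of these genes can be shared with other transcripts. Phgdh has 9 other transcripts of at least 95% identity over at least 200 bases, 8 of them annotated as processed pseudogenes. The closest, Gm7901, has 98.7% identity and was listed at 1.28 and 0.702 TPM in E18 samples and at 0 in the adults. How such reads were counted is not stated. Psph shares 452 exon bases with Cct6a on the opposite strand, which was at 180 to 313 TPM. The kit keeps the strand, but use of strand in the counting is not given in the sources used here, so the level of Psph is uncertain.

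Of the mitochondrial one-carbon enzymes, Mthfd2 rose in both groups and Shmt2 did not pass in either. Mthfd2 was at 1.71 and 1.42 TPM in normal fed, 6.46 and 5.71 in DDC fed, and 41.4 and 51.0 in E18 samples. The groups stood well apart, with the DDC fed samples between the others. The mean went from 1.57 ± 0.201 to 6.09 ± 0.527 TPM with DDC, a log2 difference of 1.47 ± 0.21 (adjusted p = 0.00215, limma), and to 46.2 ± 6.81 TPM at E18, a difference of 4.20 ± 0.21 (adjusted p = 4.4e-06, limma). The rise with DDC was lost under quantile normalization, at 0.58 (adjusted p = 0.0572).

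Shmt2 was at 180.5 and 93.0 TPM in normal fed, 220.1 and 195.4 in DDC fed, and 156.0 and 165.4 in E18 samples. The normal fed samples differed more from each other than the DDC fed and E18 samples did from each other, and both E18 values lay between them. The differences from normal fed were 0.67 ± 0.32 for DDC fed (adjusted p = 0.147, limma) and 0.31 ± 0.32 for E18 samples (adjusted p = 0.413, limma). Without normal fed sample 0 both passed, at 1.15 (adjusted p = 0.00231) and 0.78 (adjusted p = 0.00443). Without sample 1 the E18 difference turned to -0.17 (adjusted p = 0.346), and median-ratio scaling turned it to -0.89 (adjusted p = 0.0147). The level of Shmt2 in normal fed samples, and so its change, rested on these samples.

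Asns, which makes asparagine, was at 0.310 and 0.156 TPM in normal fed, 1.28 and 2.10 in DDC fed, and 124.2 and 119.4 in E18 samples. The groups did not overlap, and the E18 samples were 523 times the normal fed mean. The E18 difference was 6.64 ± 0.22 (adjusted p = 1.59e-06, limma), with means of 122 ± 3.36 and 0.233 ± 0.108 TPM. With DDC the mean was 1.69 ± 0.584 TPM, 7.25 times that of normal fed samples, and the log2 difference was 1.11 ± 0.22 (adjusted p = 0.00903, limma). The call was lost when DDC fed sample 1 was left out (0.89, adjusted p = 0.102), with a pseudocount of 5 (0.35, adjusted p = 0.0951) or under quantile normalization (0.31, adjusted p = 0.245).

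Atf4 was among the highest of the 10 genes in each sample. It was at 142.3 and 127.9 TPM in normal fed, 117.6 and 136.3 in DDC fed, and 269.8 and 264.9 in E18 samples. The adult groups overlapped and both E18 samples were higher. The DDC fed mean of 127 ± 13.3 TPM differed from the normal fed mean of 135 ± 10.2 TPM by -0.09 ± 0.20 (adjusted p = 0.755, limma). Under median-ratio scaling Atf4 fell by 0.76 with DDC (adjusted p = 0.0267). The E18 mean of 267 ± 3.51 TPM was higher by 0.98 ± 0.20 (adjusted p = 0.00358, limma), near the median of all genes tested, which was 1.06. Under median-ratio scaling the E18 difference turned to -0.22 (adjusted p = 0.346), and under the exon-length correction it was 0.22 (adjusted p = 0.313).

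Of the 3 stress targets, Trib3 passed in both comparisons with normal fed samples, Ddit3 at E18, and Chac1 in neither. Trib3, a pseudokinase that binds the kinase AKT, was at 1.08 and 1.64 TPM in normal fed, 6.13 and 4.59 in DDC fed, and 3.45 and 3.23 in E18 samples. It was highest in DDC fed samples, and no groups overlapped. It rose with DDC from 1.36 ± 0.401 to 5.36 ± 1.08 TPM, by 1.43 ± 0.21 (adjusted p = 0.00222, limma). That call was lost under quantile normalization alone of the 16 alternatives that tested it (0.53, adjusted p = 0.13). At E18 it was higher than in normal fed samples by 0.89 ± 0.21 (adjusted p = 0.00644, limma), but the difference was 0.06 under median-ratio scaling (adjusted p = 0.847) and -0.86 under quantile normalization (adjusted p = 0.0136). Without E18 sample 0 it did not pass (0.85, adjusted p = 0.0578).

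Ddit3, which encodes the stress transcription factor CHOP, was at 32.6 and 45.3 TPM in normal fed, 57.5 and 85.7 in DDC fed, and 88.6 and 57.5 in E18 samples. All DDC fed and E18 values were above both normal fed values, and the samples of each group lay far apart. The difference with DDC was 0.85 ± 0.31 (adjusted p = 0.0744, limma) and did not pass under any of the 17 alternatives. The E18 difference was 0.88 ± 0.31 (adjusted p = 0.0385, limma), and it kept its call under 6 of the 17. It was lost without normal fed sample 0 (0.65, adjusted p = 0.13), DDC fed sample 0 (adjusted p = 0.0517) or 1 (adjusted p = 0.0518), and E18 sample 0 (0.57, adjusted p = 0.252) or 1 (1.18, adjusted p = 0.0602). Ddit3 shares 68 exon bases with Mars on the opposite strand.

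Chac1, an enzyme that degrades glutathione, was at 2.33 and 0.776 TPM in normal fed, 0.842 and 0.401 in DDC fed, and 1.42 and 0.682 in E18 samples. All 3 groups overlapped. The differences from normal fed were -0.60 ± 0.32 for DDC fed (adjusted p = 0.19, limma) and -0.27 ± 0.32 for E18 samples (adjusted p = 0.471, limma). Chac1 passed as lower with DDC without normal fed sample 1 (-1.05, adjusted p = 0.0383), and under median-ratio scaling (-0.97, adjusted p = 0.0479) and quantile normalization (-1.37, adjusted p = 0.00643). Trib3 passed as higher in the same DDC fed samples, and the windows of both genes hold the core printed above. The part of the core in the levels of either gene was not tested. The Chac1 to Trib3 ratio of TPM, which no scaling of a whole sample alters, was 2.16 and 0.472 in normal fed, 0.138 and 0.0874 in DDC fed, and 0.411 and 0.211 in E18 samples.

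Counted over the 10 genes, 4 passed as higher with DDC (Psph, Mthfd2, Asns and Trib3), none as lower (also 0 at an unadjusted p under 0.05) and 6 did not pass. Of all genes tested 34.2% were called higher and 3.07% lower in that comparison (37.3% either way), so the share of the 10 genes called was near that of all genes. Their median log2 difference was 0.76, beside 0.45 over all genes. The count was 2 without DDC fed sample 1 and 5 without normal fed sample 0, and 1 gene, Chac1, was called lower without normal fed sample 1. At E18, 8 passed as higher, none as lower (also 0 unadjusted), and Shmt2 and Chac1 did not pass, where 63% of all genes were called higher and 12.7% lower (75.7% either way). The median of the 10 was 1.55 beside 1.06. Among the 8 were Phgdh and Psat1, which passed the filter only through the E18 samples, where they were high. Median-ratio scaling, which moved the medians of all genes to -0.01 with DDC and 0.03 at E18, left 3 higher and 2 lower with DDC (Atf4 and Chac1) and 5 higher and 2 lower at E18 (Shmt2 and Chac1). Quantile normalization left 0 higher and 1 lower with DDC (Chac1), and 6 higher and 2 lower at E18 (Trib3 and Chac1).

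**Figure D2:**
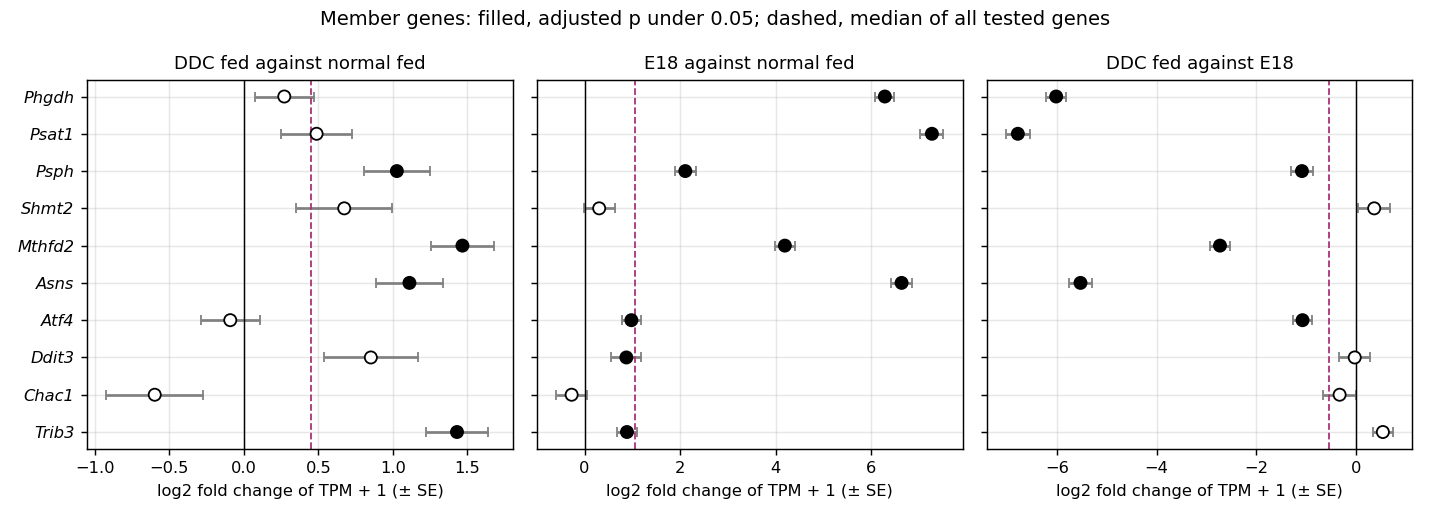
Log2 fold change of TPM + 1 for each of the 10 genes in the 3 comparisons, with bars of ± 1 SE, filled points past the threshold and a dashed line at the median of all genes tested. With DDC the differences run from -0.60 to 1.47, and at E18 Psat1, Asns, Phgdh and Mthfd2 stand apart at 4.20 to 7.28.

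Set against E18 directly, DDC fed samples were lower in 6 of the 10 genes (Phgdh, Psat1, Psph, Mthfd2, Asns and Atf4) and higher in none (1 at an unadjusted p under 0.05), where 47% of all genes were called lower and 17.7% higher (64.7% either way). The median was -1.08 beside -0.55 over all genes. Among the 6, Phgdh and Psat1 passed the filter only through the E18 samples. The differences were -6.79 ± 0.24 for Psat1 (adjusted p = 2.52e-06), -6.02 ± 0.20 for Phgdh (adjusted p = 2.13e-06), -5.53 ± 0.22 for Asns (adjusted p = 3.6e-06) and -2.73 ± 0.21 for Mthfd2 (adjusted p = 4.91e-05, limma). These 4 held in all 17 alternatives. Median-ratio scaling called 5 of the 10 lower and 2 higher (Shmt2 and Trib3), as did the exon-length correction. Psph differed by -1.08 ± 0.22 (adjusted p = 0.00495, limma), lost without DDC fed sample 0 (adjusted p = 0.0535) or E18 sample 0 (adjusted p = 0.0506). It was also lost under median-ratio scaling (-0.58, adjusted p = 0.0747), quantile normalization (-0.50, adjusted p = 0.108) and the exon-length correction (-0.55, adjusted p = 0.057). Atf4 differed by -1.07 ± 0.20 (adjusted p = 0.00314, limma), lost without DDC fed sample 0 (adjusted p = 0.0526). Trib3 was the closest to a call in the other direction, at 0.54 ± 0.21 (adjusted p = 0.0538, limma), which became a call once normal fed sample 0 or 1 was left out (adjusted p = 0.0261 for each). Shmt2 was at 0.37 ± 0.32 (adjusted p = 0.351) a call once normal fed sample 0 (adjusted p = 0.037) or 1 (adjusted p = 0.0391) was left out. Ddit3 and Chac1 overlapped between the groups, at -0.02 ± 0.31 (adjusted p = 0.951) and -0.33 ± 0.32 (adjusted p = 0.403, limma).

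Ratios within a sample compare a gene with its counterpart on the TPM scale, whatever scaling is used for whole samples, and were not tested. Shmt2 against its cytosolic paralog Shmt1 was at 0.946 and 0.531 in normal fed, 1.43 and 1.18 in DDC fed, and 1.74 and 2.80 in E18 samples. Mthfd2 against Mthfd2l, the paralog of adult tissues, was at 0.439 and 0.146, then 1.48 and 0.785, then 4.67 and 6.67. Mthfd1l, the last mitochondrial step, against cytosolic Mthfd1 was at 0.00771 and 0.00662, then 0.0566 and 0.0484, then 0.348 and 0.378. In each of the 3 pairs the mitochondrial or growth-linked member was lowest relative to its counterpart in normal fed samples and highest in E18 samples, and no groups overlapped.

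Synthesis against breakdown differed further. Phgdh relative to Sds, the serine dehydratase that breaks serine down, was at 5.17e-05 and 0.000147 in normal fed, 0.000623 and 0.00139 in DDC fed, and 17.2 and 19.9 in E18 samples. Asns relative to Aspg, an asparaginase, was at 0.00339 and 0.00225, then 0.0194 and 0.0353, then 72.0 and 77.9. In both of these pairs the breakdown gene was the higher one in the adults of both diets, and the synthesis gene was in E18 samples. Asrgl1, which also cleaves asparagine, was not set against Asns. Unlike Aspg, it was called higher with DDC and at E18, with the limits given below. Trib3 relative to Atf4 was at 0.00757 and 0.0129 in normal fed, 0.0521 and 0.0337 in DDC fed, and 0.0128 and 0.0122 in E18 samples, so that this ratio was highest in DDC fed samples.

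**Figure D3:**
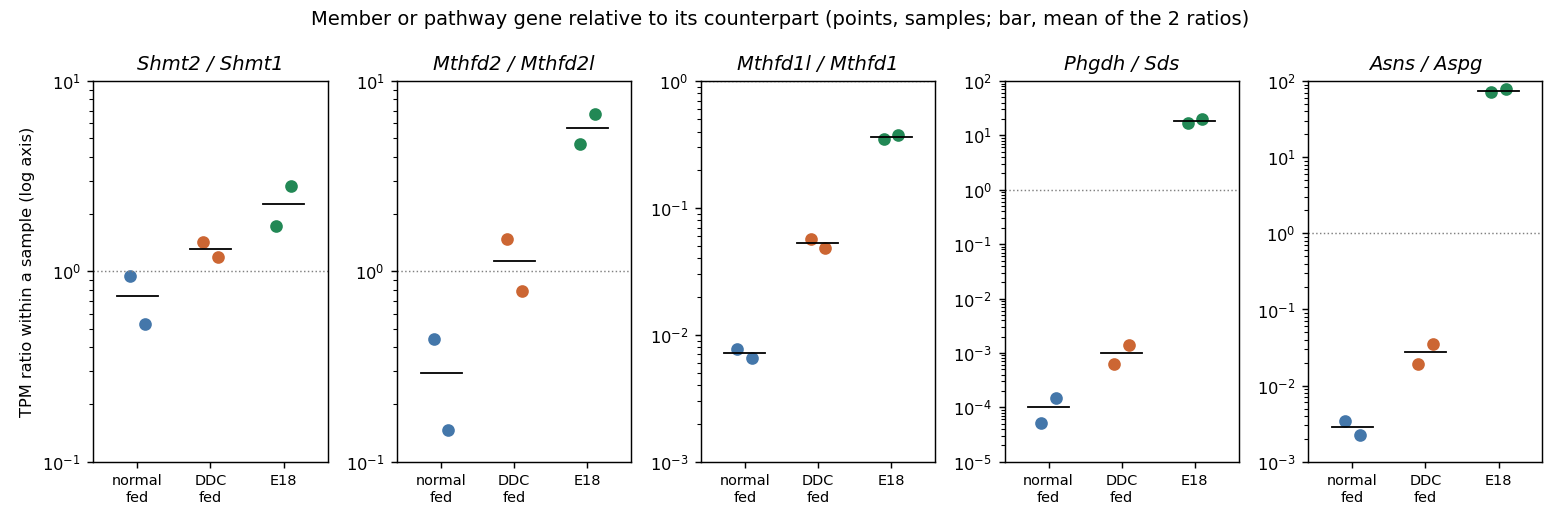
Ratio of the TPM of a gene to that of its counterpart within each sample on a log axis, with a point per sample, a bar at the mean of the 2 ratios and a dotted line at 1. The Phgdh to Sds and Asns to Aspg ratios reach at most 0.00139 and 0.0353 in the 4 adult samples and at least 17.2 and 72.0 in the E18 samples.

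The serine and glycine breakdown genes had no call with DDC, where 34.2% of all genes were called higher and 3.07% lower. They had many lower calls at E18, where 12.7% of all genes were called lower. Of 16 tested, 0 passed in either direction with DDC by limma, also at an unadjusted p under 0.05, with a median of -0.01, and 13 were lower at E18, with a median of -1.34. With DDC, 7 were lower under median-ratio scaling and 3 were higher without normal fed sample 0. Sds was at 376 and 217 TPM in normal fed, 213 and 255 in DDC fed, and 5.15 and 3.55 in E18 samples, a fall by 5.76 ± 0.31 at E18 (adjusted p = 5.99e-06, limma). Gnmt, which methylates glycine, fell by 4.01 ± 0.31 (adjusted p = 2.98e-05, limma) and Gldc of the glycine cleavage system fell by 1.75 ± 0.41 (adjusted p = 0.00688, limma). Gldc did not pass without E18 sample 1 (adjusted p = 0.1), and without that sample 7 of the 16 were called lower. These falls went along with the lower sum of hepatocyte markers in E18 samples, a sum made uncertain by the zeros given above. The part of those markers in the falls was not tested.

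Of the 15 other folate enzymes, 6 were higher with DDC and none lower (also 0 unadjusted), with a median of 0.37. That count was near the 34.2% of all genes called higher with DDC. At E18, 63% of all genes were called higher and 12.7% lower. Mthfd1l was at 1.13 and 0.385 TPM in normal fed, 7.15 and 5.55 in DDC fed, and 41.0 and 42.7 in E18 samples, and rose by 2.09 ± 0.26 with DDC (adjusted p = 0.00132) and by 4.64 ± 0.26 at E18 (adjusted p = 7.58e-06, limma), ratios of means of 8.36 and 55.2. Tyms, which makes thymidylate, was at 11.7 and 13.1 TPM, then 40.0 and 43.3, then 92.1 and 114, a rise of 1.67 ± 0.20 with DDC (adjusted p = 0.00105, limma). Mtr, the methionine synthase, rose with DDC by 0.79 ± 0.21 (adjusted p = 0.0285, limma). Its call was lost when DDC fed sample 0 (adjusted p = 0.175) or 1 (adjusted p = 0.129), or E18 sample 0 (adjusted p = 0.0719) or 1 (adjusted p = 0.0707), was left out. The list had 2 higher without either DDC fed sample, 3 without either E18 sample, and 2 higher and 2 lower under median-ratio scaling. At E18, 5 were higher (among them Mthfd1l, Tyms, Mtr and Aldh1l2) and 4 lower (Aldh1l1, Ftcd, Shmt1 and Fpgs), with 8 higher without normal fed sample 0 and 5 higher and 9 lower under median-ratio scaling. Aldh1l1, the cytosolic enzyme that spends one-carbon units, fell by 2.77 ± 0.47 (adjusted p = 0.00155) and Shmt1 fell by 1.32 ± 0.25 (adjusted p = 0.00252, limma). Fpgs, which adds glutamate to folates, did not pass without E18 sample 1 (adjusted p = 0.0622).

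Among 13 genes of proline, aspartate and alanine synthesis, 4 were higher with DDC and none lower (1 lower at an unadjusted p under 0.05). The DDC count was near the 34.2% of all genes called higher. The shares of all genes at E18 were 63% higher and 12.7% lower. Aldh18a1, the first enzyme of proline synthesis, was at 0.130 and 0.0824 TPM in normal fed, 1.84 and 1.88 in DDC fed, and 39.8 and 39.1 in E18 samples. It rose by 1.37 ± 0.17 with DDC (adjusted p = 0.00114) and by 5.19 ± 0.17 at E18 (adjusted p = 1.51e-06, limma), ratios of means of 17.5 and 371. Asrgl1, which cleaves asparagine, rose by 1.77 ± 0.25 with DDC (adjusted p = 0.00197, limma). Pycr1, the last proline enzyme, rose by 0.74 ± 0.20 (adjusted p = 0.0294, limma), and leaving out normal fed sample 0 or 1, DDC fed sample 1 or E18 sample 0 or 1 ended that call (adjusted p = 0.0618, 0.0667, 0.186, 0.0531 and 0.0539). At E18, 5 were higher (among them Aldh18a1, Pycr1 and Asrgl1) and 5 lower (Gpt, Aspg, Gls2, Gpt2 and Pycrl). Median-ratio scaling gave 3 higher and 4 lower with DDC, and 4 higher and 7 lower at E18. The alanine aminotransferase Gpt fell by 5.80 ± 0.29 (adjusted p = 4.7e-06), Aspg fell by 4.94 ± 0.21 (adjusted p = 2.67e-06) and Gls2, which breaks down glutamine in liver, fell by 3.40 ± 0.31 (adjusted p = 6.86e-05, limma). Asrgl1 at E18 was lost without DDC fed sample 0 (adjusted p = 0.0523) or 1 (adjusted p = 0.0521) and E18 sample 0 (adjusted p = 0.0818) or 1 (adjusted p = 0.151), and turned below 0 under median-ratio scaling, quantile normalization and the exon-length correction. Pycrl was lost without E18 sample 0 (adjusted p = 0.0728) or 1 (adjusted p = 0.0586).

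Of 22 other known ATF4 targets, 11 were higher with DDC and 2 lower, with a median of 0.95, and 14 were higher and 3 lower at E18. Over all genes the shares were 34.2% higher and 3.07% lower with DDC, and 63% and 12.7% at E18, so that the E18 counts were near the background. Median-ratio scaling gave 9 and 3 with DDC and 10 and 8 at E18. Gdf15, a secreted stress hormone, was at 15.4 and 11.4 TPM in normal fed, 169 and 240 in DDC fed, and 21.2 and 10.2 in E18 samples. It rose by 3.83 ± 0.37 with DDC (adjusted p = 0.000449, limma), and DDC fed samples exceeded E18 samples by 3.68 ± 0.37 (adjusted p = 0.000169, limma). Fgf21, another secreted hormone, was at 2.30 and 5.41, then 11.6 and 13.0, then 0.825 and 0.349 TPM, a rise of 1.53 ± 0.33 with DDC (adjusted p = 0.0123) and a fall by 1.55 ± 0.33 at E18 (adjusted p = 0.00459, limma). The E18 fall did not pass without E18 sample 1 (adjusted p = 0.0811). The rise of Fgf21 with DDC was not checked in the alternatives. For Gdf15 and Fgf21, as for Trib3, the highest samples were those of DDC fed mice.

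Other targets were high in both groups. The transcription factor Atf3 was at 7.71 and 4.59 TPM in normal fed, 81.5 and 194 in DDC fed, and 228 and 138 in E18 samples, with rises of 4.19 ± 0.46 (adjusted p = 0.000764) and 4.68 ± 0.46 (adjusted p = 0.000108, limma). Ddit4, an inhibitor of mTORC1, rose by 2.72 ± 0.20 with DDC (adjusted p = 0.000192) and the lipoprotein receptor Vldlr by 3.13 ± 0.21 (adjusted p = 0.00013, limma). Ppp1r15a (GADD34), which directs the dephosphorylation of eIF2, reached 192 ± 1.20 TPM at E18, a rise of 4.07 ± 0.28 (adjusted p = 1.76e-05, limma). Herpud1, of ER-associated degradation, fell by 0.83 ± 0.27 with DDC (adjusted p = 0.0496) and Vegfa fell by 0.86 ± 0.21 (adjusted p = 0.0182, limma). Neither passed without DDC fed sample 0 (adjusted p = 0.157 and 0.175) or 1 (adjusted p = 0.305 and 0.0962), and the Herpud1 call was also lost without any other sample (adjusted p = 0.0531 to 0.0616). At E18 the lower genes were Herpud1, Nmrk1 and Fgf21. Atf5, a relative of Atf4, was higher at E18 by 0.90 ± 0.27 (adjusted p = 0.0192, limma), lost without E18 sample 0 (adjusted p = 0.0758) and below 0 under median-ratio scaling.

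Amino acid transporters linked to ATF4 had 6 of 11 tested higher with DDC and 10 of 11 at E18, with medians of 0.67 and 3.55. Of all genes, 34.2% and 63% were called higher, with medians of 0.45 and 1.06. Slc1a4, which carries alanine, serine and cysteine, was at 0.691 and 0.465 TPM in normal fed, 29.2 and 24.5 in DDC fed, and 32.6 and 22.4 in E18 samples. It rose by 4.14 ± 0.25 with DDC (adjusted p = 9.5e-05) and by 4.15 ± 0.25 at E18 (adjusted p = 9.32e-06, limma), ratios of means of 46.4 and 47.55. The DDC fed and E18 values of Slc1a4 overlapped. The cystine transporter Slc7a11 rose with DDC by 1.29 ± 0.17 (adjusted p = 0.00155, limma), to 1.47 ± 0.264 TPM. Slc38a1 rose by 0.67 ± 0.15 (adjusted p = 0.0123) and Slc38a7, a lysosomal carrier, by 1.20 ± 0.29 (adjusted p = 0.0192, limma). Without DDC fed sample 0 (adjusted p = 0.101 and 0.124) or 1 (adjusted p = 0.117 and 0.0894) neither passed, Slc38a7 also failed without E18 sample 0 (adjusted p = 0.0794) or 1 (adjusted p = 0.0792), and 2 of the 11 then were called higher without either DDC fed sample. The leucine transporter Slc7a5 rose at E18 by 4.82 ± 0.22, to 44.7 ± 7.29 TPM (adjusted p = 3.24e-06, limma), a ratio of means of 71.7. It was at 1.02 ± 0.194 TPM in DDC fed and 0.623 ± 0.276 in normal fed samples.

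Of 20 cytosolic aminoacyl-tRNA synthetases, which charge tRNAs, 4 were higher with DDC (Gars, Lars, Qars and Sars) and 17 at E18, with none lower in either (also 0 unadjusted). Beside these counts, 34.2% and 63% of all genes were called higher, so that the DDC count was below the background. Gars was at 40.9 and 26.0 TPM in normal fed, 100 and 92.2 in DDC fed, and 100 and 102 in E18 samples, a rise of 1.53 ± 0.25 with DDC (adjusted p = 0.00378, limma) that held in all alternatives. Lars, Qars and Sars rose by 0.90 ± 0.28, 0.66 ± 0.19 and 0.70 ± 0.20 (adjusted p = 0.0435, 0.0335 and 0.0352, limma). These 3 were lost without DDC fed sample 0 (adjusted p = 0.217, 0.176 and 0.149), DDC fed sample 1 (adjusted p = 0.153, 0.236 and 0.252), E18 sample 0 (adjusted p = 0.129, 0.0529 and 0.0749) or E18 sample 1 (adjusted p = 0.129, 0.0532 and 0.075). The count with DDC was 17 without normal fed sample 0, and 1 when any single DDC fed or E18 sample was left out. Median-ratio scaling left 1 higher and 1 lower. At E18 it was 11 without E18 sample 1, and median-ratio scaling left 2 higher and 3 lower, so that the synthetase counts changed with the scaling of whole samples.

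Of 16 genes for eIF2 kinases, eIF2 and its exchange factor, 2 were higher with DDC (Impact and Eif2ak3) and 11 at E18, none lower (also 0 unadjusted). The shares of all genes called higher were 34.2% and 63%. The DDC count was below that background and the E18 count near it. Impact, an inhibitor of the kinase GCN2, was at 4.00 and 4.73 TPM in normal fed, 18.3 and 16.7 in DDC fed, and 11.2 and 10.8 in E18 samples, a rise of 1.79 ± 0.19 with DDC (adjusted p = 0.000705, limma). Eif2ak3, the ER stress kinase PERK, rose by 1.13 ± 0.34 with DDC (adjusted p = 0.0385, limma), lost without DDC fed sample 0 (adjusted p = 0.206) or 1 (adjusted p = 0.109) and E18 sample 0 or 1 (adjusted p = 0.127 for each). Without normal fed sample 0 the list had 9 higher with DDC and without any single DDC fed or E18 sample 1, and median-ratio scaling left 1 higher and 3 lower. Eif2ak1, the heme-regulated kinase, was at 14.0 ± 6.49 TPM in normal fed and 18.2 ± 1.60 in DDC fed samples (adjusted p = 0.342), a difference that became a call with normal fed sample 0 left out (0.88, adjusted p = 0.0149). At E18 it rose by 1.78 ± 0.33 (adjusted p = 0.00232, limma), lost without E18 sample 1 (adjusted p = 0.0514), while Eif2ak4 (GCN2), which senses uncharged tRNA, rose by 2.05 ± 0.25 (adjusted p = 0.0003, limma). Without E18 sample 0 or 1 the E18 count was 5 or 3, and median-ratio scaling left 2 higher and 5 lower. Summed erythroid markers were far higher in E18 samples, and their part in these kinases was not tested.

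Of 22 genes of the ATF6 and XBP1 arms, 0 were higher by limma (1 at an unadjusted p under 0.05) and 3 lower with DDC (Derl3, Creld2 and Syvn1), with a median of -0.13, and 1 was higher and 7 lower at E18, with a median of -0.44. The shares over all genes were 34.2% higher and 3.07% lower with DDC, and 63% and 12.7% at E18. The count lower with DDC was 1 without DDC fed sample 0, 5 without normal fed sample 0 or 1, and 10 under median-ratio scaling. The count lower at E18 was 4 without E18 sample 0, 3 without E18 sample 1, 11 without normal fed sample 1 and 18 under median-ratio scaling. No gene was called higher with DDC in any setting except the replicate block, which called 1, and without normal fed sample 0, which called 6. Hspa5 (BiP), the main ER chaperone, was at 1805 ± 9.20 TPM in normal fed, 1514 ± 407 in DDC fed, and 1172 ± 330 in E18 samples, with a difference of -0.28 ± 0.34 with DDC (adjusted p = 0.549, limma). Derl3 fell with DDC by 1.94 ± 0.35 (adjusted p = 0.0055, limma). Syvn1 fell by 1.06 ± 0.23 and Creld2 fell by 1.17 ± 0.31 (adjusted p = 0.0127 and 0.025, limma). Without DDC fed sample 0 neither passed (adjusted p = 0.128 and 0.187), Syvn1 was lost without sample 1 (adjusted p = 0.0527), and Creld2 without normal fed sample 1 (adjusted p = 0.0746) or E18 sample 0 (adjusted p = 0.0903) or 1 (adjusted p = 0.0901). The higher gene at E18, Atf6b, turned below 0 under median-ratio scaling and was lost without E18 sample 1 (adjusted p = 0.0671). Of 9 mitochondrial stress genes only the protease gene Oma1 was called with DDC, higher by 0.74 ± 0.23 (adjusted p = 0.0454, limma). That call was lost without normal fed sample 1, either DDC fed sample or either E18 sample (adjusted p = 0.053 to 0.229), and 7 of the 9 were called without normal fed sample 0.

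**Figure D4:**
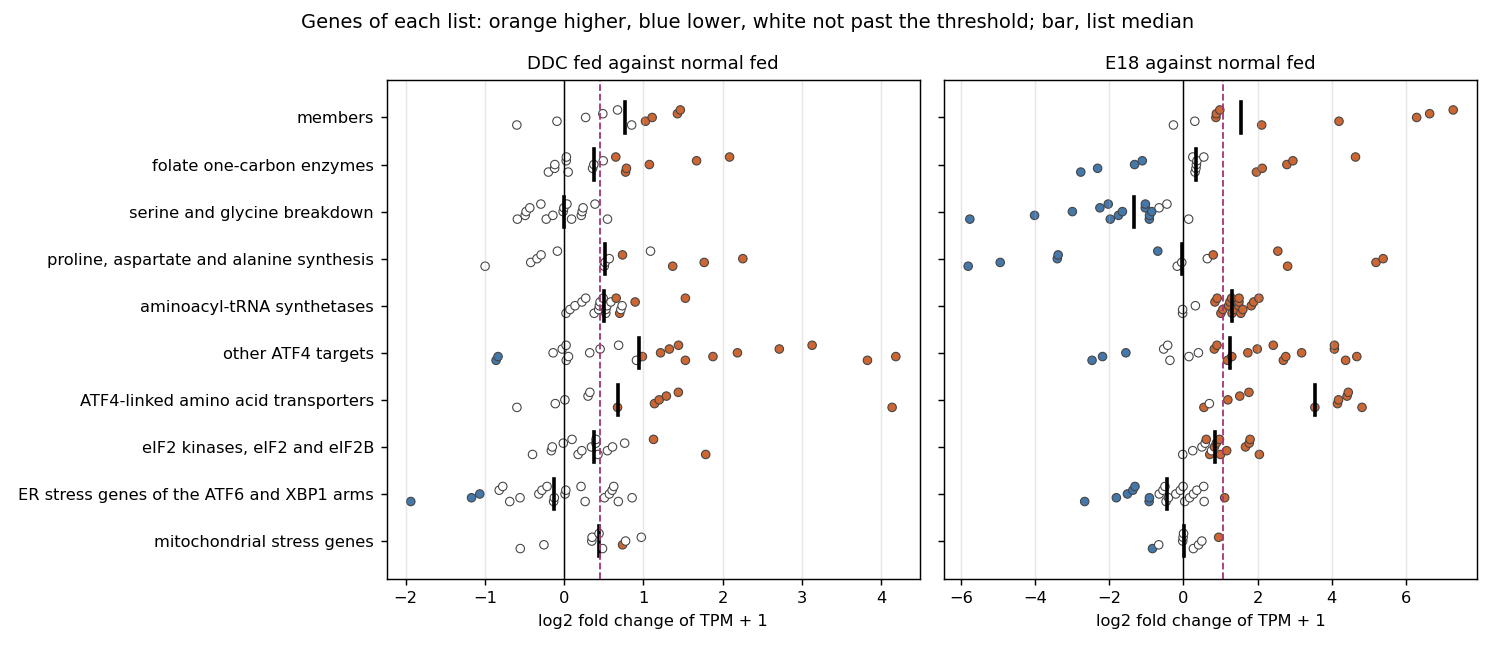
Log2 fold change of TPM + 1 of every tested gene of the 10 genes and 9 companion lists with DDC and at E18, filled where the adjusted p is under 0.05, with a bar at the list median and a dashed line at the median of all genes tested (0.45 and 1.06). Other ATF4 targets lie to the right of the dashed line in the median of both panels, and the breakdown genes and ER stress genes lie to the left of it.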

How the data were processed

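RNA of 6 hepatocyte samples was sequenced as stranded, poly(A)-selected libraries, per the labels' protocols. The authors deposited TPM values, with columns summing to 1000000. The submitters' processing notes name STAR 2.4.2a, HTSeq, Cuffdiff 2.2.1 and other tools on GRCm38, with no role for each, and the tool behind the table is not given in the sources used here. Columns were matched to groups by name and not to single titles, since columns are numbered 0 and 1. Identifiers were matched to GENCODE M21, which named 48053 of 48432 genes. The 14307 genes that reached 1 TPM in 2 or more samples were fitted as log2(TPM + 1), with 1 mean per group over all 6 samples and 3 residual degrees of freedom, in limma 3.58.1 (R 4.3.3, with data.table, version 1.17.8) with a mean-variance trend. Tests were two-sided, and the script was tested on simulated data. Near-identical transcripts were found with blastn 2.17.0+. The members and lists were chosen with earlier results of these data known. Genes were named by rule: the 10 members, up to 4 genes of each list with the smallest adjusted p with DDC or all where 5 or fewer passed, fixed counterparts of members, and the 5 genes closest in pattern to Phgdh, Asns and Trib3. Some genes at E18 (Gnmt, Gpt, Slc7a5 and Ppp1r15a) were named after their values were seen, and some genes the rule names are not reported here. The alternatives were 2 pseudocounts, 2 filters, 4 scalings, the replicate block, only the compared groups, no variance trend and each sample left out.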

Additional observations from a re-analysis of the deposited data

How the results depend on the processing

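Of 100 differences of single genes named here, 51 kept their direction and side of the threshold in all 17 alternatives that gave a value. Among them were the E18 rises of Phgdh, Psat1, Psph, Mthfd2 and Asns. Phgdh and Psat1 passed the main filter only through the E18 samples. A mean of at least 5 TPM dropped Chac1 and Trib3, which have no value there. No counts were used, so the counting error at the low adult levels of Phgdh, Psat1 and Asns is unknown, and the cause of the changes below was not tested.

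Over all genes, 4896 were higher and 439 lower with DDC, 9020 and 1815 at E18, and 2532 and 6723 in DDC fed against E18. Median-ratio scaling gave 2890 and 1747 with DDC, 5073 and 4613 at E18, and 3996 higher against E18. Quantile normalization gave 2087 and 2059, 4576 and 5234, and 4586 higher. The exon-length correction gave 2532 and 1663, 4821 and 4799, and 4540 higher. The filter on a mean of 5 TPM gave 261 lower with DDC and 4299 lower against E18.

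Of the 10 genes, median-ratio scaling called 2 lower with DDC, 5 higher and 2 lower at E18, and 2 higher against E18. Quantile normalization called 0 higher and 1 lower with DDC, 2 lower at E18 and 1 higher against E18. The exon-length correction called 5 higher at E18 and 2 higher against E18. A pseudocount of 5 called 1 higher against E18, and a fit of only the compared groups 2.

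Directions turned for some genes. Under median-ratio scaling these were Qars (-0.0044) and Eif2ak1 (-0.20) with DDC, Shmt2 (-0.89), Atf4 (-0.22), Ddit3 (-0.31), Asrgl1 (-0.25), Atf5 (-0.30) and Atf6b (-0.045) at E18, and Ddit3 against E18 (0.50). Under quantile normalization they were Phgdh (-0.061), Psat1 (-0.31), Mtr (-0.10), Pycr1 (-0.10) and Eif2ak1 (-0.17) with DDC, Trib3 (-0.86) and Asrgl1 (-0.75) at E18, and Ddit3 (0.085) and Chac1 (0.35) against E18. Under the exon-length correction they were Phgdh (-0.20), Psat1 (-0.080) and Eif2ak1 (-0.17) with DDC, Shmt2 (-0.61) and Asrgl1 (-0.29) at E18, and Ddit3 against E18 (0.25). Rescaling without the 50 highest genes and the erythroid markers turned Ddit3 against E18 (0.043).

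Leaving out 1 sample, the 10 genes gave 2 to 5 higher and 0 to 1 lower with DDC, 6 to 8 higher at E18, and 0 to 2 higher and 4 to 6 lower against E18. Over all genes these fits gave 2511 to 7962 higher and 217 to 987 lower with DDC, 7222 to 9867 higher and 1147 to 2313 lower at E18, and 1460 to 3289 higher and 4658 to 7898 lower against E18. With 1 sample left out, directions turned for Sds with DDC (-0.69 to 0.10) and Chac1 at E18 (-0.72 to 0.18) without normal fed sample 0, and for Eif2ak1 with DDC (-0.030 to 0.88) and Shmt2 at E18 (-0.17 to 0.78) without normal fed sample 1. Atf4 with DDC (-0.20 to 0.015) turned without DDC fed sample 0, and Ddit3 against E18 (-0.33 to 0.28) without DDC fed or E18 sample 0.

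Across genes, the log2 difference of sample 1 from sample 0 in a group was correlated with the same difference in each other group. The correlation was 0.233 for normal fed and DDC fed, 0.139 for normal fed and E18, and 0.0605 for DDC fed and E18. The number was therefore not taken to pair the samples. With the replicate block, 4 of the 10 genes were higher and 1 lower with DDC (Chac1), 8 higher at E18 and 6 lower against E18. Of the 5 genes closest in pattern to Phgdh, Asns and Trib3, median-ratio scaling shared 5, 4 and 2, quantile normalization 2, 2 and 2, the exon-length correction 2, 2 and 3, rescaling 5, 4 and 3, a pseudocount of 0.1 shared 1, 0 and 2, and a pseudocount of 5 shared 4, 2 and 0. Leaving out 1 sample shared 0 to 4, 2 to 4 and 0 to 3.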

Other observations

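The genes closest in pattern over the 6 samples were sought for Phgdh, Asns and Trib3. The measure was the root mean square difference of centred log2(TPM + 1) values, over 10350 genes with a mean of at least 5 TPM. Genes with only a provisional name or an identifier were left out after ranking, so the closest are those among the remaining genes. The points share libraries and 3 groups, so the ranking describes 6 values and was not tested. For Phgdh the closest were Rab44, Myl9, Slc2a3, Rgs18 and F13a1, at differences of 0.14 to 0.19. Rab44 was at 0 TPM in both normal fed samples, 0.16 and 0.196 in DDC fed, and 77.2 and 83.3 in E18 samples. For Asns they were Ikzf1, Itgam, Ggt1, Myl9 and F13a1, at 0.20 to 0.27. Ikzf1, a transcription factor of blood cells, was at 0.164 and 0.0712 TPM, then 1.56 and 1.33, then 111 and 133. Itgam, an integrin of myeloid cells, reached 84.9 and 97.7 TPM at E18. Summed neutrophil and erythroid markers were also far higher in E18 samples. Their part in the patterns of Phgdh and Asns was not tested. For Trib3 the closest genes were Tbc1d10a, Coprs, Gskip, Id1 and Atp6v0e, at 0.13 to 0.16. Gskip was at 3.90 and 4.86 TPM in normal fed, 17.8 and 15.7 in DDC fed, and 9.37 and 9.76 in E18 samples.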
